A study of Rattus norvegicus with 3 samples.

Results

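The 10 basement membrane genes examined here encode the collagen IV chains Col4a1 and Col4a2, the laminin chains Lama1, Lama5, Lamb1 and Lamc1, the nidogens Nid1 and Nid2, the proteoglycan perlecan (Hspg2) and fibronectin (Fn1). They were chosen by name, though with earlier results of these data known. All 10 of 10 were found among the 18425 genes of the deposited table, each with at least 74 reads in every library. RNA was taken at postnatal day 4 (P4) from retinas of wild-type Sprague Dawley rats that had received 1 µl of citrate buffer, saline or streptozotocin (STZ, 10 µg) in the vitreous at P1. STZ is a nitrosourea linked to a glucosamine and damages DNA by alkylation, and citrate buffer is the solvent in which it was prepared. There was 1 library per condition, and the number of retinas or animals behind each library is not given in the sources used here. For its P1 injections the study describes STZ in right eyes and citrate buffer in the fellow eyes. Whether the STZ and buffer libraries came from the same animals is not stated. No difference below has a replicate check or a p-value. The 3 libraries held between 21977876 and 22031287 reads in genes. Pax6, a retinal transcription factor, was abundant in every library, at 264 FPKM with buffer, 271 with saline and 269 with STZ. It is 1 of 14 progenitor and Müller glia markers listed below, and most of the others had their lowest FPKM in STZ.

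Basement membranes are thin sheets of matrix that line epithelia, surround vessels and, in the eye, form the inner limiting membrane of the retina, Bruch's membrane and the lens capsule. Laminin trimers polymerize at the cell surface, collagen IV forms a covalent network beside them, and nidogens and perlecan connect the networks. Cells bind them through integrins and dystroglycan. Fibronectin is a fibrillar matrix protein rather than a core component of the mature sheet. In the developing retina it is laid down by astrocytes and vessels as the superficial plexus spreads from the optic nerve.

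Of the 10 genes, 2 were lower in STZ than in both controls by the rule of the study's methods, Fn1 and Col4a1. The rule takes the fold as (FPKM + 1)/(FPKM + 1) and calls it lower below 0.65 and higher above 1.54. FPKM is the number of fragments scaled to transcript length and to the size of the library, so it can be compared between genes of different length, and the added 1 brings the folds of genes with a low FPKM nearer to 1. Against both controls, 0.630% of all genes were lower and 1.39% were higher, and 0 of the 10 were higher. In STZ against buffer the count was also 2 of 10 lower and 0 higher, where 1.04% of all genes were lower and 2.25% higher. In STZ against saline it was again 2 of 10 lower and 0 higher, where 1.75% of all genes were lower and 2.04% higher. Between the controls, saline against buffer, 0 of 10 passed in either direction, where 0.429% of all genes were lower and 1.00% higher.

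**Figure D1:**
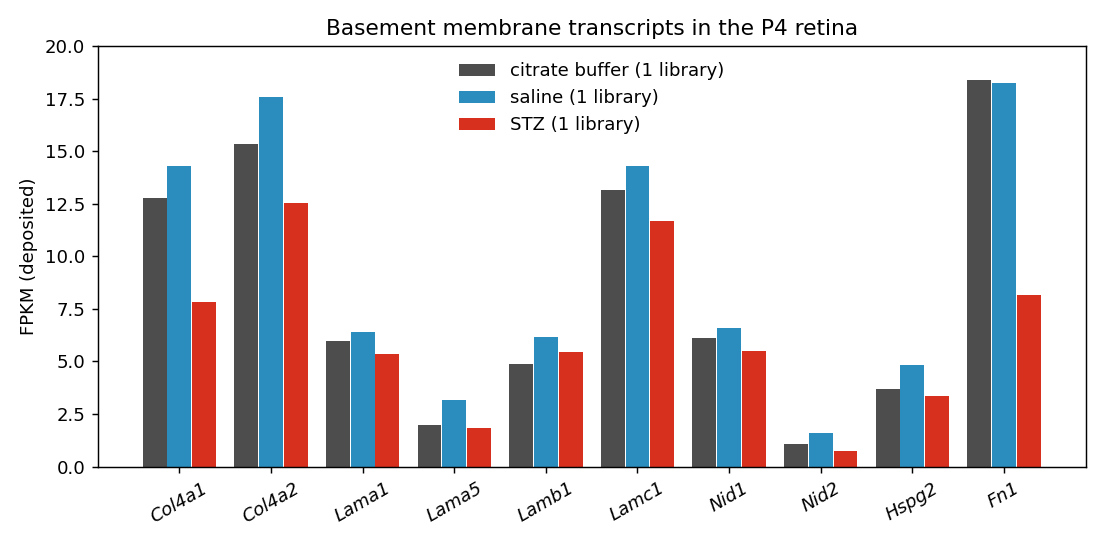
Deposited FPKM of the 10 basement membrane genes in the citrate buffer, saline and STZ libraries, 1 bar per library, with no error bars because there was 1 library per condition. Fn1 stood at 18.4 and 18.2 FPKM in the controls and at 8.14 in STZ, and the STZ bar is the lowest for every gene except Lamb1.

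Fn1 stood at 18.4 FPKM with buffer, 18.2 with saline and 8.14 with STZ. These levels rested on 3224, 3192 and 1429 reads. The control libraries lay close together and the STZ library stood well below both. The buffer control gave a fold of 0.471 and the saline control one of 0.476. The count ratio divides the share of all reads that a gene takes in one library by its share in the other. It was 0.442 with buffer as the control (95% Clopper-Pearson interval 0.415 to 0.471) and 0.447 with saline (0.419 to 0.475). The reads carry no molecular identifiers and cannot be taken as separate molecules, so all intervals here cover counting error only and compare libraries, not conditions. For saline against buffer the ratio was 0.991 (0.943 to 1.04), an interval that holds 1. Fn1 had the highest FPKM of the 10 genes in both controls and the third highest in STZ. Of the 14886 genes with a mean of at least 10 reads over the 3 libraries, 39 had a lower fold than Fn1 against buffer and 62 had a lower one against saline.

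Col4a1 and Col4a2 encode the chains of the collagen IV trimer found in nearly all basement membranes, and each trimer joins a pair of alpha 1 chains with a single alpha 2 chain. The genes lie head to head. In the rat assembly GRCr8 of RefSeq, 76 bases separate their annotated starts, at chr16:84885521-84885596, with Col4a2 on the minus strand to the left and Col4a1 on the plus strand to the right. A start on the minus strand within 1000 bases upstream was found for 10.9% of the 16845 plus-strand starts in the same table. The stretch is shown because both genes start from it and their reads nevertheless differed. It is written 5′ to 3′ on the plus strand, with capitals for a match to the GC box GGGCGG on the minus strand.

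Col4a2 to Col4a1: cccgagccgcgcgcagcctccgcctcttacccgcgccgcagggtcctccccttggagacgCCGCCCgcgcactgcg

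Of these bases 78.9% were G or C, and neither CCAAT nor TATAAA occurred in them on either strand. Windows from 250 bases before to 50 bases after the start were at hand for 8 of the 10 genes, all except Fn1 and Nid2. GGGCGG or its complement was present in 7 of these 8 windows and in 33.1% of all 33469 windows. CCAAT was present in 4 of 8, those of Col4a1, Col4a2, Lama1 and Nid1, and in 37.5% of all windows. TATAAA was present in 0 of 8 and in 14.2% of all. The windows of Col4a1 and Col4a2 overlap and can share a match.

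Col4a1 reached 12.8 FPKM with buffer, 14.3 with saline and 7.85 with STZ, counted from 1782, 1993 and 1098 reads. STZ was the lowest library and the controls lay near each other. Its fold was 0.643 against buffer, just inside the threshold of 0.65, and 0.579 against saline. The count ratios were 0.615 (0.570 to 0.663) and 0.550 (0.510 to 0.592). Col4a2 reached 15.3, 17.6 and 12.5 FPKM in the same order, counted from 2100, 2406 and 1723 reads. It followed the same order of libraries with a smaller step, and its folds of 0.830 and 0.730 did not pass. With buffer as the control its count ratio was 0.819 (0.768 to 0.873), and with saline 0.714 (0.671 to 0.760). Both genes were a little higher in saline than in buffer, with count ratios of 1.12 (1.05 to 1.19) for Col4a1 and 1.15 (1.08 to 1.22) for Col4a2.

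The balance of the Col4a1 and Col4a2 transcripts can be read within a library, where the library total cancels. Ratios of reads do not give the ratio of the protein chains. There were 0.849 Col4a1 reads per Col4a2 read in buffer (0.796 to 0.904), 0.828 in saline (0.780 to 0.879) and 0.637 in STZ (0.590 to 0.688). The interval in STZ lay below those of both controls. The STZ ratio was 0.751 of the buffer ratio (conditional exact interval 0.680 to 0.830) and 0.769 of the saline ratio (0.698 to 0.848). The saline ratio was 0.976 of the buffer ratio (0.894 to 1.07). Per length, Col4a1 stood at 0.833, 0.814 and 0.626 of the Col4a2 FPKM in buffer, saline and STZ.

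Laminins are trimers of an alpha, a beta and a gamma chain. Lamc1 encodes the gamma chain shared by most laminins and reached 13.2 FPKM with buffer, 14.3 with saline and 11.7 with STZ, counted from 2142, 2322 and 1902 reads. Lama1 encodes an alpha chain of early embryonic and ocular basement membranes. Its FPKM was 5.99, 6.42 and 5.36, from 1361, 1459 and 1221 rounded reads, and it was the only one of the 10 genes whose estimated counts were fractional. Both genes were lowest in STZ by a small margin. The count ratios in STZ against buffer were 0.886 (0.833 to 0.943) for Lamc1 and 0.896 (0.828 to 0.968) for Lama1. Against saline they were 0.817 (0.769 to 0.869) and 0.835 (0.773 to 0.901).

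Lamb1 encodes the beta 1 chain and was the exception to the order of libraries. It reached 4.86 FPKM with buffer, 6.18 with saline and 5.43 with STZ, counted from 646, 819 and 725 reads. The buffer library was lowest and STZ lay between the controls, where the folds were 1.10 to buffer and 0.896 to saline. The count ratio against buffer was 1.12 (1.01 to 1.25), and that against saline was 0.883 (0.798 to 0.977). There were 0.302 Lamb1 reads per Lamc1 read in buffer (0.276 to 0.329), 0.353 in saline (0.325 to 0.382) and 0.381 in STZ (0.349 to 0.415). The STZ ratio was 1.26 of the buffer ratio (1.12 to 1.43) and 1.08 of the saline ratio, the latter with an interval that holds 1 (0.960 to 1.22). The saline ratio was 1.17 of the buffer ratio (1.04 to 1.32).

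Lama5 encodes the alpha chain of many mature epithelial and vascular basement membranes. It reached 1.99 FPKM with buffer, 3.18 with saline and 1.85 with STZ, counted from 484, 775 and 451 reads. Here the saline library stood apart, and STZ and buffer lay together. The count ratio was 0.930 against buffer (0.816 to 1.06) but 0.581 against saline (0.516 to 0.653), and saline against buffer gave 1.60 (1.43 to 1.80). The fold of 0.682 against saline fell short of the threshold because of the added 1. Lama5 had 0.356 reads per Lama1 read in buffer (0.320 to 0.395), 0.531 in saline (0.486 to 0.580) and 0.369 in STZ (0.331 to 0.412).

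Nid1 and Nid2 encode the nidogens, rod-like linkers between laminin and collagen IV. Nid1 reached 6.10 FPKM with buffer, 6.57 with saline and 5.52 with STZ, counted from 769, 828 and 697 reads, and its libraries lay near each other. Its count ratio was 0.905 against buffer (0.815 to 1.00376, so that 1 lies inside) and 0.840 against saline (0.758 to 0.930). Nid2 was the weakest of the 10 genes in every library, at 1.09, 1.62 and 0.74 FPKM from 108, 161 and 74 reads. The count ratio of Nid2 was 0.684 with buffer as the control (0.502 to 0.928) and 0.459 with saline (0.343 to 0.607), but its folds of 0.833 and 0.664 did not pass. The fold of 0.664 was the closest to the threshold outside it. Nid2 had 0.140 reads per Nid1 read in buffer (0.114 to 0.172), 0.194 in saline (0.163 to 0.230) and 0.106 in STZ (0.0824 to 0.135), so the STZ and buffer intervals overlapped and the STZ and saline intervals did not.

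Hspg2 encodes perlecan, a large heparan sulfate proteoglycan. It reached 3.71 FPKM with buffer, 4.81 with saline and 3.35 with STZ, counted from 1161, 1505 and 1050 reads. The saline library was the highest and buffer and STZ were close. The count ratio was 0.903 against buffer (0.830 to 0.982) and 0.696 against saline (0.643 to 0.754), and saline against buffer gave 1.30 (1.20 to 1.40).

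**Figure D2:**
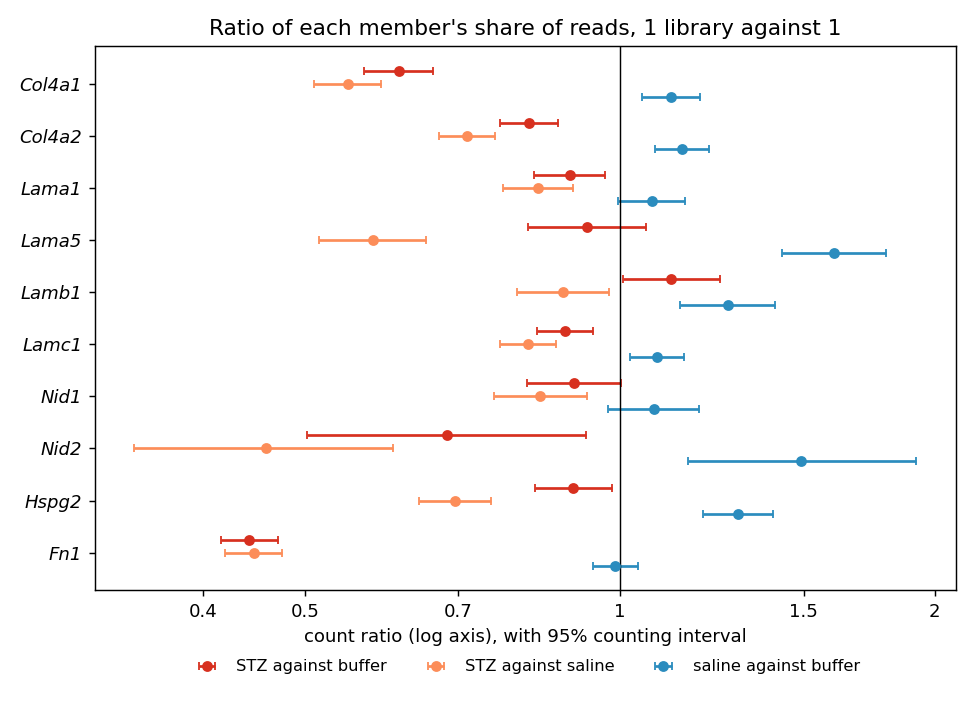
Count ratio of each basement membrane gene on a log axis for the comparisons of STZ with each control and of the controls with each other, 1 library against 1, with bars for the 95% counting interval. Fn1 and Col4a1 lie well below 1 against both controls, while Lama5, Nid2 and Hspg2 lie far lower against saline than against buffer because the saline library was high.

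Across the 10 genes the STZ library held the lowest FPKM for 9 and the saline library the highest for 9. The exceptions were Lamb1, lowest in buffer, and Fn1, highest in buffer. The median log2 fold of STZ over the 10 was -0.15 to buffer and -0.44 to saline, and that of saline to buffer was 0.17. Over the 14886 genes with a mean of at least 10 reads the medians were 0.03, 0.01 and 0.02. The counting interval of the ratio lay below 1 for 7 of the 10 in STZ against buffer and above 1 for 1, Lamb1, where 18.8% of the 14886 genes lay below and 26.2% above. It lay below 1 for 10 of 10 in STZ against saline, where 23.5% lay below and 26.9% above. In saline against buffer it lay below 1 for 0 of 10 and above for 7, where 12% lay below and 15.9% above. The 10 genes had a median of 1293 reads averaged over the libraries and the 14886 genes one of 622, and more reads give narrower intervals.

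All 10 genes together held 13777 reads in buffer, 15460 in saline and 10370 in STZ. These sums are 0.0626% (0.0616 to 0.0637), 0.0703% (0.0692 to 0.0715) and 0.0471% (0.0462 to 0.0480) of the library totals. The summed share in STZ was 0.751 of that in buffer (0.732 to 0.771) and 0.669 of that in saline (0.653 to 0.686). Without Fn1 and Col4a1, the remaining 8 genes had ratios of 0.893 (0.866 to 0.920) and 0.761 (0.739 to 0.784), and saline against buffer gave 1.17 (1.14 to 1.21). Fn1 and Col4a1 were left out because they had passed as lower, so ratios nearer to 1 follow from that choice.

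**Figure D3:**
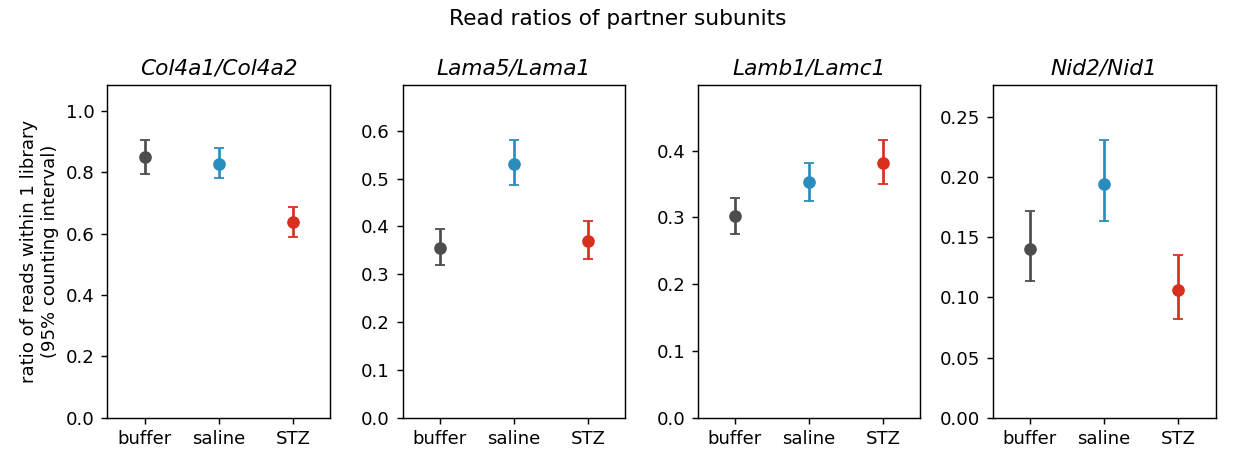
Reads of a gene per read of its partner gene within each library, with 95% counting intervals, 1 point per library and panels with separate axes that start at 0. Col4a1 per Col4a2 was 0.849 and 0.828 in the controls and 0.637 in STZ, whereas Lama5 per Lama1 was highest in saline at 0.531.

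By level, the order in buffer was Fn1, Col4a2, Lamc1, Col4a1, Nid1, Lama1, Lamb1, Hspg2, Lama5 and Nid2, from 18.4 down to 1.09 FPKM. In saline, Col4a1 at 14.29 and Lamc1 at 14.27 FPKM changed places, and the rest of the order was the same. In STZ, Col4a2 led at 12.5 FPKM, followed by Lamc1 at 11.7, Fn1 at 8.14 and Col4a1 at 7.85. Nid1, Lama1 and Lamb1 lay within 5.36 to 5.52 FPKM there. With 1 library per condition the spread behind neighbouring places is unknown.

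Among 30 other basement membrane components, 28 had a mean of at least 10 reads. Of these 28, 2 were lower and 0 higher in STZ against buffer, and 4 were lower and 1 higher against saline. Their median log2 fold was -0.09 against buffer and -0.18 against saline. The gene lower against both was Fbln2, which encodes fibulin-2, an elastic fiber and basement membrane glycoprotein. Its level was 10.3 FPKM with buffer, 14.2 with saline and 5.27 with STZ, counted from 891, 1226 and 458 reads, with folds of 0.557 and 0.412. The others past the thresholds were named after their values were seen. Col15a1 was lower against buffer, at a fold of 0.639, on 163 reads with buffer, 65 with saline and 64 with STZ, so that saline was about as low. Col18a1, Col4a5 and Fbln1 were lower against saline, at folds of 0.572, 0.604 and 0.634, and lay closer to buffer, at 1.02, 0.883 and 0.869. Col18a1, the source of endostatin, had 1434, 2628 and 1464 reads, a pattern like that of Lama5. Egflam, which encodes the dystroglycan ligand pikachurin of the photoreceptor ribbon synapse, was higher against saline at a fold of 1.59 and short of 1.54 against buffer at 1.44, with 6424, 5866 and 9265 reads.

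Of 22 receptor genes, which were integrins, syndecans, dystroglycan, discoidin receptors and the laminin receptor Bcam, 21 had enough reads. In STZ against buffer 0 of 21 passed in either direction, and against saline 1 was lower, Ddr2, named after its values were seen, on 37 reads with buffer, 141 with saline and 23 with STZ. The most abundant receptor transcripts were Ddr1, a collagen-binding receptor tyrosine kinase, at 190, 184 and 128 FPKM with folds of 0.675 and 0.694, and Itgb1, the common beta chain of many matrix integrins, at 53.5, 55.2 and 47.4 FPKM with folds of 0.887 and 0.861. Of 12 genes for the glycosylation by which dystroglycan binds laminin, 11 were in the table under the symbols used, and 0 of 11 passed against either control. Pomgnt1 had folds of 1.10 and 1.16, and Pomt2 of 1.09 and 1.19.

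Of 18 genes for collagen folding, hydroxylation and crosslinking, 17 had enough reads and 0 passed in STZ against either control, with medians of 0.02 and 0.08 on the log2 scale. Ppib, a prolyl isomerase of the endoplasmic reticulum, had folds of 1.01 and 1.06, and P4hb, a subunit of prolyl 4-hydroxylase, of 1.06 and 1.11. Among 21 matrix proteases and their inhibitors, 3 were higher and 1 lower against buffer, and 1 was higher and 0 lower against saline. The gene higher against both was Mmp2, a gelatinase that cleaves collagen IV. Its level was 3.93 FPKM with buffer, 5.96 with saline and 11.3 with STZ, counted from 243, 368 and 698 reads, with folds of 2.49 and 1.76. The others against buffer, named after their values were seen, were Timp1 at 1.83, Plau at 1.83 with 0, 10 and 32 reads, and Mmp11 at 0.626.

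**Figure D4:**
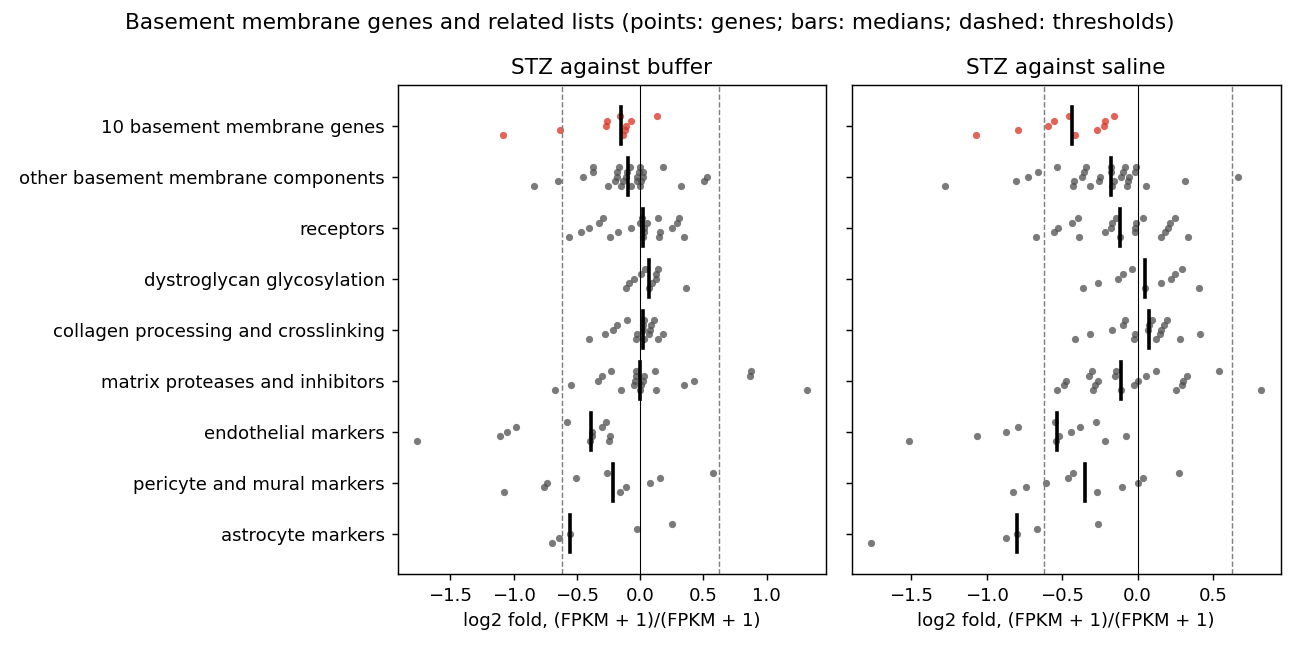
Log2 folds, (FPKM + 1)/(FPKM + 1), in STZ against buffer and against saline for the 10 basement membrane genes and 8 other lists, with 1 point per gene with a mean of at least 10 reads, a bar at each median and dashed lines at the thresholds. The endothelial and astrocyte medians, -0.39 and -0.55 against buffer, lie below that of the basement membrane genes at -0.15, and the collagen processing median lies at 0.02.

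Markers of vessel cells, astrocytes and fibroblasts also differed between the libraries. Which cells made the basement membrane transcripts was not tested. In whole-retina RNA fewer cells of a type cannot be told apart from less RNA per cell. Of 13 endothelial markers, 12 had enough reads. All 12 had folds below 1 against both controls, and 4 were lower against both: Cldn5, Cdh5, Tie1 and Egfl7. Cldn5, a tight junction protein of endothelium, had 188 reads with buffer, 154 with saline and 37 with STZ. Robo4 was at 0, 1 and 0 reads. The list summed to 14613, 15882 and 10762 reads, of which Kdr, also known from neural progenitors, held 13149, 14564 and 9972. The whole list stood at a ratio of 0.735 against buffer (0.717 to 0.754) and 0.676 against saline (0.660 to 0.693). Kdr was then left out, with earlier results of these data known. Without Kdr the sums were 1464, 1318 and 790 reads. That is a ratio of 0.539 against buffer (0.493 to 0.588) and 0.598 against saline (0.547 to 0.654). Flt1 held 590, 510 and 493 of these reads, with count ratios nearer to 1, at 0.834 against buffer and 0.964 against saline. The 10 pericyte and mural markers summed to 1051, 1032 and 742 reads, with Rgs5 and Acta2 lower against both controls. They did not all follow: 7 of 10 had folds below 1 against buffer and 3 above, Tagln at 1.49, Anpep at 1.11 and Des at 1.06. Notch3, which held much of the sum, had 531, 524 and 479 reads.

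Of 6 astrocyte markers, 5 had enough reads, and Pax2 and S100b were lower against both controls. Pax2, a transcription factor of optic nerve and retinal astrocytes, had 57, 53 and 10 reads, and Gfap 338, 410 and 214. Aldh1l1 was at 0, 1 and 0 reads. The list summed to 662, 1481 and 500 reads, a ratio of 0.754 against buffer (0.670 to 0.848) and 0.337 against saline (0.304 to 0.373). Aqp4 was close to buffer, at 28, 54 and 27 reads and a count ratio of 0.963 (0.546 to 1.69). Gja1 went the other way against buffer, at a fold of 1.19, and had 876 reads in saline against 169 in buffer and 214 in STZ. Without Gja1, left out after its values were seen, the sums were 493, 605 and 286 reads. That is a ratio of 0.579 against buffer (0.499 to 0.671) and 0.472 against saline (0.408 to 0.544). Pdgfra, which marks retinal astrocytes as well as fibroblasts, had 650, 581 and 269 reads. It was the gene lower against both controls among 9 fibroblast markers, which summed to 1164, 1222 and 779 reads. Without Pdgfra, again left out after its values were seen, they summed to 514, 641 and 510, with STZ close to buffer. Col3a1 was lower against buffer at a fold of 0.628, and Col1a2 was higher at 2.12, with 0, 59 and 104 reads. Fn1 and Col4a1 were thus lowest in the library in which all 12 endothelial markers and some mural and astrocyte markers were lowest. Among these 12, the interval of Esam held 1 against both controls, that of Emcn against buffer and that of Flt1 against saline. Most progenitor and Müller glia markers and all 3 blood markers with enough reads, given below, also had folds below 1 in STZ. The part of these cells in the differences was not tested.

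Lens, pigment epithelium and ciliary epithelium, which lie on basement membranes of their own, have markers that differed between the libraries, though not all in the same way. The 16 lens markers summed to 342, 794 and 3817 reads in buffer, saline and STZ, with 8 of the 11 that had enough reads higher in STZ against both controls. These 8 were all crystallins. The lens fiber genes Mip, Bfsp1 and Bfsp2 did not pass. Their folds were 1.11, 1.44 and 1.35 with buffer as the control and 1.11, 0.875 and 1.22 with saline. Foxe3, a marker of lens epithelium, was at 0, 0 and 1 reads. The 11 ciliary and iris markers summed to 4361, 11741 and 4125 reads, of which Aldh1a1 held 1904, 6838 and 1904, and Cdo1 did not follow, at 323, 274 and 323. The 10 pigment epithelium markers summed to 8046, 8719 and 6593 reads, with Rpe65 at 0, 2 and 2. Without Rlbp1, which Müller glia also express, they summed to 1050, 2148 and 1092. Not all followed: Rlbp1 had 6996, 6571 and 5501 reads, and Ttr, at 477, 398 and 456, was lowest in saline. Rlbp1 too was left out with earlier results of these data known. The saline library was thus high for several ciliary and pigment markers and also for Lama5, Nid2, Hspg2 and Col18a1, and the part of such tissue in their levels was not tested. Microglial markers summed to 1447, 1809 and 3972 reads, with 8 of 12 higher against both controls. The 6 blood markers summed to 1321, 1791 and 934 reads, with Hba2 lower in STZ against both controls. The 14 progenitor and Müller glia markers summed to 48165, 49125 and 43555 reads, and Lhx2 and Nr2e1 were lower against both controls. Of the 14, 11 had folds below 1 against buffer and 3 above. Against saline 13 were below 1 and 1 above. Pax6 had folds of 1.02 and 0.991, nearer to 1 than most of the list.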

How the data were processed

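Retinal RNA was sequenced in 3 libraries, 1 per condition. Per the labels and the study's methods, the authors checked reads with FastQC, trimmed them, mapped them to the rat genome (rn6 in the submitters' processing notes) with TopHat2 and discarded reads with several locations. The annotation, the counting tool and whether strand was used are not given in the sources used here. The authors deposited FPKM, computed with their own R script, TPM, and an estimated count per gene. These expected counts were fractional for 2858 of 18425 genes and were rounded to whole numbers. The table of all libraries and those of single libraries held the same values.

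Folds were (FPKM + 1)/(FPKM + 1) with the study's thresholds of 0.65 and 1.54. Count ratios carry Clopper-Pearson intervals at 95%, and ratios of ratios carry conditional exact intervals (scipy 1.17.1, Python 3.11.15). No test was run and no count model was fitted, since there was 1 library per condition, so no p-value is given. The members and the 15 other lists were chosen with earlier results of these data known. Named genes were all members and, from each other list, those past the thresholds against both controls or otherwise the 2 with the highest mean FPKM, with exceptions stated. For the pigment epithelium list that rule gave Rlbp1 and Ttr, and of lists with many such genes only some are printed. A few marker genes of these lists are not reported here. Alternatives were a pseudocount of 0.1, TPM or CPM in place of FPKM, thresholds of 2 and 0.5, TMM factors of edgeR 4.0.16, size factors of DESeq2 1.42.0 (R 4.3.3), the counting interval as the rule, a minimum mean of 10 reads, and both controls averaged. The functions were tested on simulated data. Promoter sequence came from RefSeq (GRCr8), which differs from the build of the files and was used for nothing else. Figures were drawn with matplotlib 3.10.9.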

Additional observations from a re-analysis of the deposited data

How the results depend on the processing

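The members lower in STZ against both controls numbered 2 under a pseudocount of 0.1, TPM, CPM, TMM and DESeq2 scaling, 1 under thresholds of 2 and 0.5, where Fn1 passed, and 7 with the counting interval as the rule. Against buffer the 2 lower and 0 higher became 1 lower with the wider thresholds, and 7 lower and 1 higher with the interval. Against saline the 2 lower became 4 with a pseudocount of 0.1, with TPM and with CPM, as Lama5 and Nid2 joined, 1 with the wider thresholds and 10 with the interval. In saline against buffer the 0 higher became 1 with a pseudocount of 0.1 and with CPM, and 7 with the interval. With both controls averaged, the median log2 fold was -0.30, in place of -0.15 against buffer and -0.44 against saline. The summed share of 0.751 against buffer was 0.730 with TMM and 0.732 with DESeq2 factors, 0.846 without Fn1, which had the most reads, and 0.708 against the mean of the controls. Against saline 0.669 became 0.727 without Fn1 and 0.708 against that mean. In saline against buffer 1.12 became 1.16 without Fn1. Of 200 recomputed folds of single members, 188 lay within the counting interval of the count ratio widened to take in the fold as reported, 12 lay outside it, and 0 past the thresholds changed direction. A minimum of 10 reads changed no value for the members. Looser rules raised the counts over all 18425 genes too. The 191 lower and 415 higher against buffer became 831 and 1432 with a pseudocount of 0.1. They became 52 and 166 with the wider thresholds and 2851 and 4007 with the interval. Against saline the 322 and 375 became 1270 and 1265 with a pseudocount of 0.1. TPM gave 513 and 575, CPM 472 and 499, the wider thresholds 85 and 130, and the interval 3585 and 4075. In saline against buffer the 79 and 185 became 541 and 1113 with a pseudocount of 0.1. CPM gave 82 and 265 there. Under these alternatives no share of all genes is given for both controls together. No replicate could be left out. No paired analysis was possible because there was 1 library per condition.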
